A study of Mus musculus with 23 samples.

Results

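The genes described here are 10 markers of the unfolded protein response of the endoplasmic reticulum (ER), taken by gene name from the 38924 genes of the deposited tables. They are Hspa5, Hsp90b1, Dnajb9, Sdf2l1, Pdia4, Calr, Creld2, Manf, Xbp1 and Herpud1, and every library's table lists all 10, with Sdf2l1 at 0 counts in 3 no-Cre libraries. RNA was sequenced from anti-haemagglutinin precipitates of mouse spinal cord at 2 weeks of age. All animals carried 1 RiboTag allele (Rpl+/-), a ribosomal protein gene, Rpl22, that gains a haemagglutinin tag only where Cre acts. The mutant Cre group (6 libraries, Rpl+/-;Chat+/-;C201R+/-) carried ChAT-Cre and the C201R allele of Gars, the glycyl-tRNA synthetase gene in which dominant mutations cause an inherited neuropathy of peripheral axons. Its counterpart was the wild-type Cre group (5 libraries, Rpl+/-;Chat+/-;C201R+/+). The mutant no-Cre group (6 libraries, Rpl+/-;Chat+/+;C201R+/-) and the wild-type no-Cre group (6 libraries, Rpl+/-;Chat+/+;C201R+/+) were negative controls without Cre, so their precipitates hold untagged background RNA. All 4 groups were on the strain background B6.CgxB6.129. ChAT-Cre marks all cholinergic cells, of which motor neurons are the main class in spinal cord, and not motor neurons alone.

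When unfolded proteins gather in the ER, the chaperone BiP (Hspa5) leaves the stress sensors IRE1, PERK and ATF6. IRE1 splices the mRNA of the transcription factor XBP1, ATF6 is cut free to enter the nucleus, and both switch on chaperones, folding enzymes and degradation factors of the ER. PERK phosphorylates eIF2alpha, which lowers general translation and raises translation of ATF4, whose targets are mostly genes of amino acid supply. Other kinases, among them GCN2, phosphorylate the same factor without ER stress, so ATF4 targets can rise with or without the ER genes. Motor neurons make large amounts of membrane and secreted protein, and their ER stress response has been studied in several motor neuron diseases.

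The ER stress response element (ERSE) is the best known DNA sign of this gene group, and its matches are printed because they show which members carry it. It was searched as CCAAT, 9 free bases and CCACG on both strands, in windows from 250 bases before to 50 bases after each gene start. The windows are from the RefSeq promoter table (GRCm38.p6), which held 9 of the 10 genes. Manf had no entry. ERSE letters occurred in the windows of 4 of these 9 genes, Hspa5, Hsp90b1, Calr and Creld2, against 0.119% of all 32851 windows (39 windows). The related ERSE-II (ATTGG, 1 free base, CCACG) occurred in Herpud1, against 0.0365% of all windows (12 windows). Herpud1 was also the only one of the 9 with a match to an ATF4 composite site (TGATG, 1 free base, AA), which 3.97% of all windows held. The sequences run 5′ to 3′ in the direction of the gene, and capitals mark the paired parts of each element, or of its reverse complement.
Hspa5 (chr2:34772020-34772048, plus strand): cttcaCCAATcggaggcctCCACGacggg
Calr (chr8:84847070-84847098, minus strand): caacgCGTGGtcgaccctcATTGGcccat
Creld2 (chr15:88819515-88819543, plus strand): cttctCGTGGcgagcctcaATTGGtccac
Hsp90b1 (chr10:86705528-86705661, minus strand): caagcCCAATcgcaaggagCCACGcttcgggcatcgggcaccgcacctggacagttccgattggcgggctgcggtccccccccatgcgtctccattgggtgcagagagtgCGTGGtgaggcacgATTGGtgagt
Herpud1 (chr8:94386312-94386392, plus strand): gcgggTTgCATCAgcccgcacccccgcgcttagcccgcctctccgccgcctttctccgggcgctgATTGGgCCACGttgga
Hsp90b1 held 2 ERSE matches in opposite orientation. In Herpud1 the capitals near the 5′ end mark the ATF4 composite site on the opposite strand and those near the 3′ end the ERSE-II. The core of the XBP1-bound element, TGACGTGG, was in 0 of the 9 windows and in 0.676% of all windows (222). Of 29 genes of the ATF4 branch in the table, 0 held the ERSE and 9 the ATF4 composite site, among them Fgf21, Nupr1, Trib3 and Asns. A match of letters is a description of the window and not a measured binding site. The ERSE and ERSE-II are known from genes of this group, so finding them here is no independent result. A gene was counted if any of its windows matched, whereas the percentages count single windows.

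Depth and cell content differed between libraries. Total expected counts were 9031654 to 19671869 per library, and ribosomal RNA genes took 53.0 to 75.3% of them in mutant Cre, 50.6 to 89.0% in wild-type Cre, 65.8 to 95.6% in mutant no-Cre and 55.5 to 88.5% in wild-type no-Cre libraries. The set of 201 genes counted as ribosomal RNA also included Lars2, a tRNA synthetase gene. These shares, here and below, are therefore not of ribosomal RNA genes alone. Chat, the gene that defines cholinergic neurons, had 13.9 to 50.8 CPM (edgeR's library-size unit, scaled by TMM factors) in mutant Cre against 39.1 to 68.4 CPM in wild-type Cre libraries, and at most 8.21 CPM in mutant no-Cre libraries. Summed oligodendrocyte markers (8 genes, none at 0 in any group) were 801 to 7079 CPM in mutant Cre against 546 to 3004 CPM in wild-type Cre libraries, against 7369 to 16829 CPM in mutant no-Cre and 7140 to 13662 CPM in wild-type no-Cre libraries. Gars, whose alleles the gene counts cannot separate, was at 0.26 (log2 fold change, adjusted p = 0.532) in mutant over wild-type Cre libraries. The Cre precipitates therefore held glial RNA too. The highest oligodendrocyte sums among Cre libraries were in mutant libraries 4 and 6, both with the title number 18405, and in wild-type library 2. The labels do not say what that number is. In bulk RNA, fewer cells of a type and less RNA per cell cannot be told apart. Nor is it stated that every library is its own animal, and the p-values reflect how libraries vary, which may be technical.

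In the comparison with Cre, mutant against wild type, 0 of the 10 ER genes passed the test, while 14 of 30 tested genes of the ATF4 branch rose. Both lists were chosen with earlier results of these data known, so their counts are descriptions. Some ATF4-branch genes, such as Fgf21 and Nupr1, also passed the count filter only through the mutant libraries. Across all genes, 41 of 12399 (0.331%) were called by edgeR at an adjusted p under 0.05, 29 of them higher (0.234%). The major chaperone Hspa5 had nearly the same mean in mutants and wild type, with a fold change of 1.00 (95% interval 0.760 to 1.31). Of the 10 genes, 3 had an unadjusted p under 0.05, all higher in mutants: Dnajb9, Sdf2l1 and Herpud1. Unadjusted, 2113 of the 12399 genes had such a p. The median log2 fold change of the 10 genes was 0.18, against 0.06 for all genes tested and 1.61 for the ATF4 branch. The median of the 10 turned to -0.13 without the 2 mutant Cre libraries of title number 18405, and was 0.03 without mutant Cre library 6 alone. The counts depended on single libraries. Leaving out 1 library gave 10 to 1057 called genes and 6 to 21 of the ATF4 branch, and both wild-type Cre library 1 and library 2 decided the call of 1 of the 10. With library totals in place of TMM factors the median of all genes moved to 0.79, that of the 10 genes to 0.93, and 0 of the 10 were called.

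**Figure D1:**
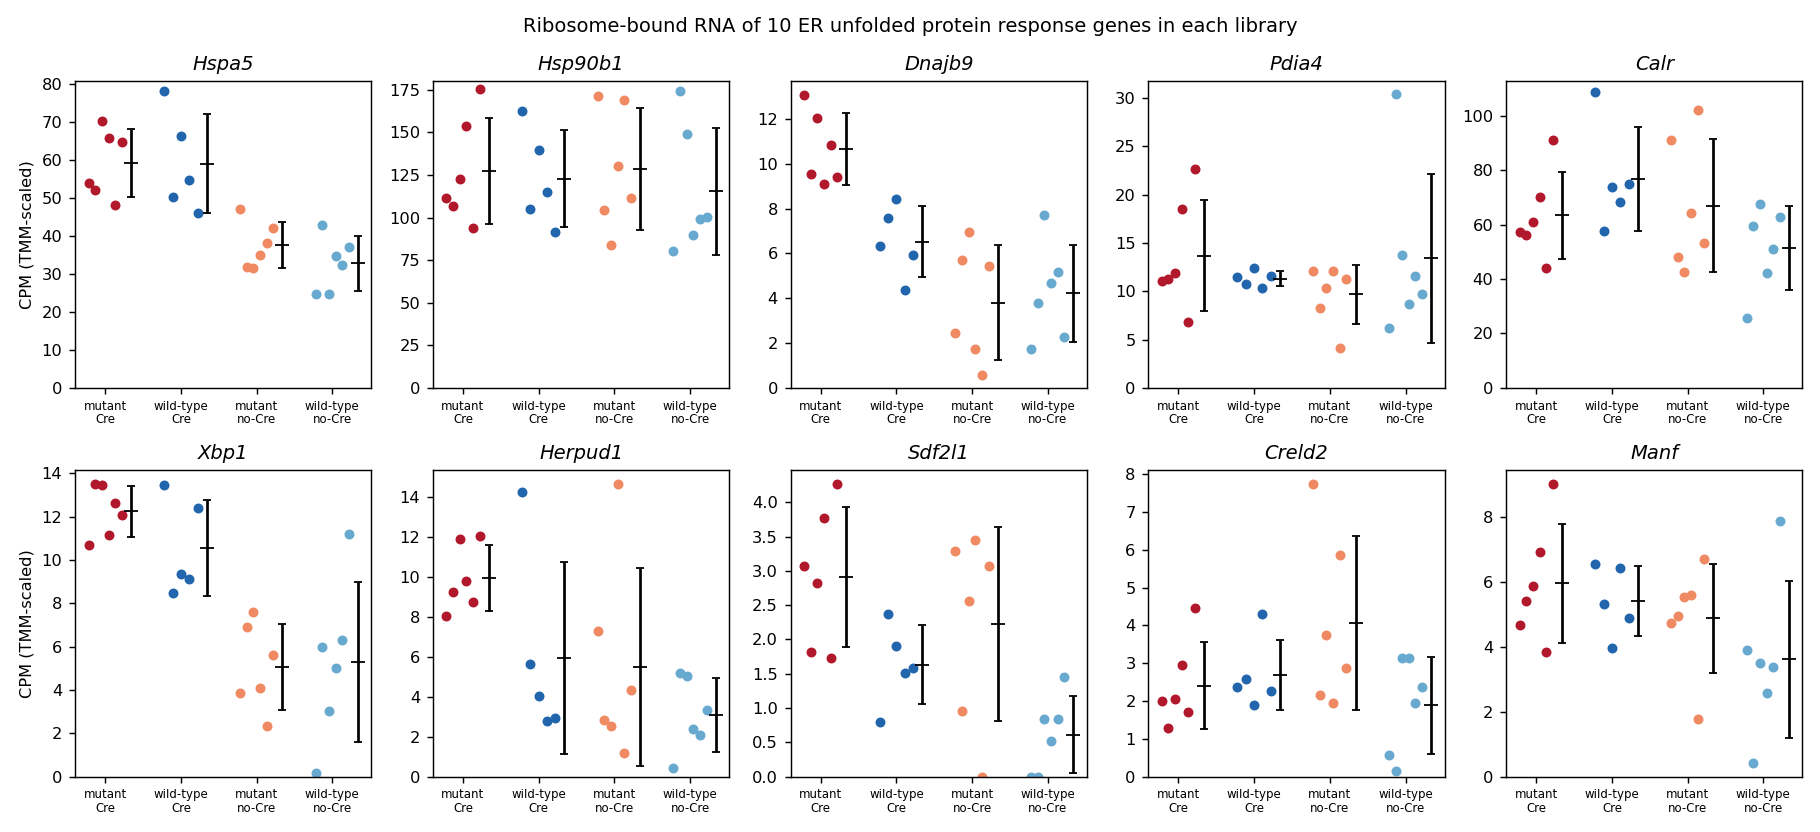
Each panel plots 1 gene, each point 1 library, in CPM scaled by TMM factors on a linear axis from 0, with the mean and SD beside the points of each group (6 mutant Cre, 5 wild-type Cre, 6 mutant no-Cre and 6 wild-type no-Cre libraries). Dnajb9 was the only gene whose mutant Cre libraries (9.07 to 13.1 CPM) all lay above the wild-type Cre libraries (4.38 to 8.43 CPM).

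The HSP70 and HSP90 chaperones of the ER lumen are the most abundant of these genes beside Calr. Hspa5, which encodes BiP, had 54.0, 52.1, 70.1, 65.8, 48.2 and 64.8 CPM in mutant Cre libraries 1 to 6, against 78.1, 50.2, 66.3, 54.6 and 46.1 CPM in wild-type Cre libraries 1 to 5. The groups overlapped, and the highest value and the lowest were both in wild-type libraries. The means were 59.2 ± 8.87 CPM in mutant and 59.1 ± 13.0 CPM in wild-type Cre libraries (SD, n = 6 and 5; log2 fold change -0.00031 ± 0.19 SE, adjusted p = 1.00 by edgeR). Hsp90b1, the ER HSP90 also called GRP94, had 93.9 to 175 CPM in mutant Cre against 91.3 to 163 CPM in wild-type Cre libraries. Its log2 fold change was 0.05 ± 0.22 (adjusted p = 0.917), with a 95% interval of the fold of 0.751 to 1.43.

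Both proteins listed next work with BiP, and both had higher means in mutants without passing the test. Dnajb9, also called ERdj4, carries a J domain that stimulates BiP and helps deliver misfolded proteins for degradation. The gene lies at chr12:44205559-44210326 on the minus strand (GRCm38, GENCODE M21). It had 13.1, 9.55, 12.04, 9.07, 10.9 and 9.40 CPM in mutant Cre libraries 1 to 6, against 6.34, 7.58, 8.43, 4.38 and 5.91 CPM in wild-type Cre libraries 1 to 5. Every mutant library was above every wild-type library, as was the case for 135 of 12399 tested genes (1.09%). Its fold change was 1.63 (95% interval 1.23 to 2.16), a log2 fold change of 0.70 ± 0.19 with an adjusted p of 0.117. DESeq2 called it (log2 fold change 0.68, adjusted p = 0.0403), in a fit that called 413 of 12399 genes. Without wild-type Cre library 2, edgeR called it too (0.74, adjusted p = 0.0431), in a fit that called 1057 of 12531 genes. Both fits thus called far more genes than the 41 of the main fit. Within title numbers 20302 and 20401, each with 2 libraries of both genotypes, the mutant mean exceeded the wild-type mean by 0.59 and 0.65 on the log2(CPM + 1) scale. As every mutant library was above every wild-type library, the direction of both differences was fixed beforehand.

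Sdf2l1 encodes a small ER protein that works in a complex with BiP and the cochaperone ERdj3, from chr16:17130138-17132383 on the minus strand. It had 3.08, 1.81, 2.83, 3.77, 1.73 and 4.26 CPM in mutant Cre libraries, against 0.793, 2.37, 1.90, 1.51 and 1.59 CPM in wild-type Cre libraries. The ranges overlapped, and 4 to 54 counts lay behind each wild-type value against 53 to 103 behind each mutant value. The 2 highest mutant values were in libraries 6 and 4, which had the highest oligodendrocyte sums, and the part of glial RNA was not tested. The log2 fold change was 0.80 ± 0.34 (adjusted p = 0.264), and the differences within the title numbers were 0.30 and 0.40 on the log2(CPM + 1) scale.

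The folding enzymes and calcium-binding chaperones showed no called difference. Pdia4, a protein disulfide isomerase also called ERp72, had 11.1, 11.3, 11.8, 18.5, 6.87 and 22.6 CPM in mutant Cre libraries against 10.3 to 12.4 CPM in wild-type Cre libraries. The values of 18.5 and 22.6 CPM were in mutant libraries 4 and 6, where oligodendrocyte markers summed to 5140 and 7079 CPM. The other 4 mutant libraries were at or below 11.8 CPM. The log2 fold change was 0.28 ± 0.27 (adjusted p = 0.586). Within the title numbers, which leave those libraries out, the differences were -0.09 and -0.27 on the log2(CPM + 1) scale. The part of glial RNA in this difference was not tested.

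Calr, the lectin chaperone calreticulin that also stores calcium, had a lower mean in mutants by TMM scaling, and a higher one by library totals alone (0.60). It had 57.4, 56.2, 61.1, 70.3, 44.2 and 91.0 CPM in mutant Cre libraries, against 109, 57.7, 74.0, 68.4 and 75.1 CPM in wild-type Cre libraries. The means were 63.4 ± 16.0 CPM in mutant and 76.8 ± 19.1 CPM in wild-type libraries, with overlapping ranges. The log2 fold change was -0.28 ± 0.22 (adjusted p = 0.511), and the 95% interval of the fold was 0.596 to 1.14. Without the libraries of title number 18405 and wild-type library 2, the 3 Cre libraries with the highest oligodendrocyte sums, Calr was called lower in mutants at -0.62 (adjusted p = 0.0373). The same fit, chosen after the data were seen, called Dnajb9 higher at 0.82 (adjusted p = 0.0301), 1285 genes in all and 23 genes of the ATF4 branch.

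Creld2 and Manf encode small ER proteins that cells secrete under ER stress, and Manf is known to protect neurons. Creld2 had 1.28 to 4.45 CPM in mutant Cre against 1.90 to 4.30 CPM in wild-type Cre libraries, a log2 fold change of -0.17 ± 0.36 (adjusted p = 0.825). Manf had 3.83 to 9.03 CPM in mutant Cre against 3.97 to 6.54 CPM in wild-type Cre libraries, a log2 fold change of 0.14 ± 0.25 (adjusted p = 0.791). The highest mutant value of both genes was in mutant library 6, which had the highest oligodendrocyte sum. The same library had the highest mutant value of Pdia4, Hsp90b1, Calr, Herpud1 and Sdf2l1, 7 of the 10 genes in all. Manf overlaps Vprbp and Rbm15b in the GENCODE M21 annotation, and Hsp90b1 overlaps 1810014B01Rik and Gm15344. Dnajb9 overlaps Gm23684, Herpud1 overlaps Gm15890 and Pdia4 overlaps Mir704. The counts of these ER genes may share reads with the genes they overlap.

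**Figure D2:**
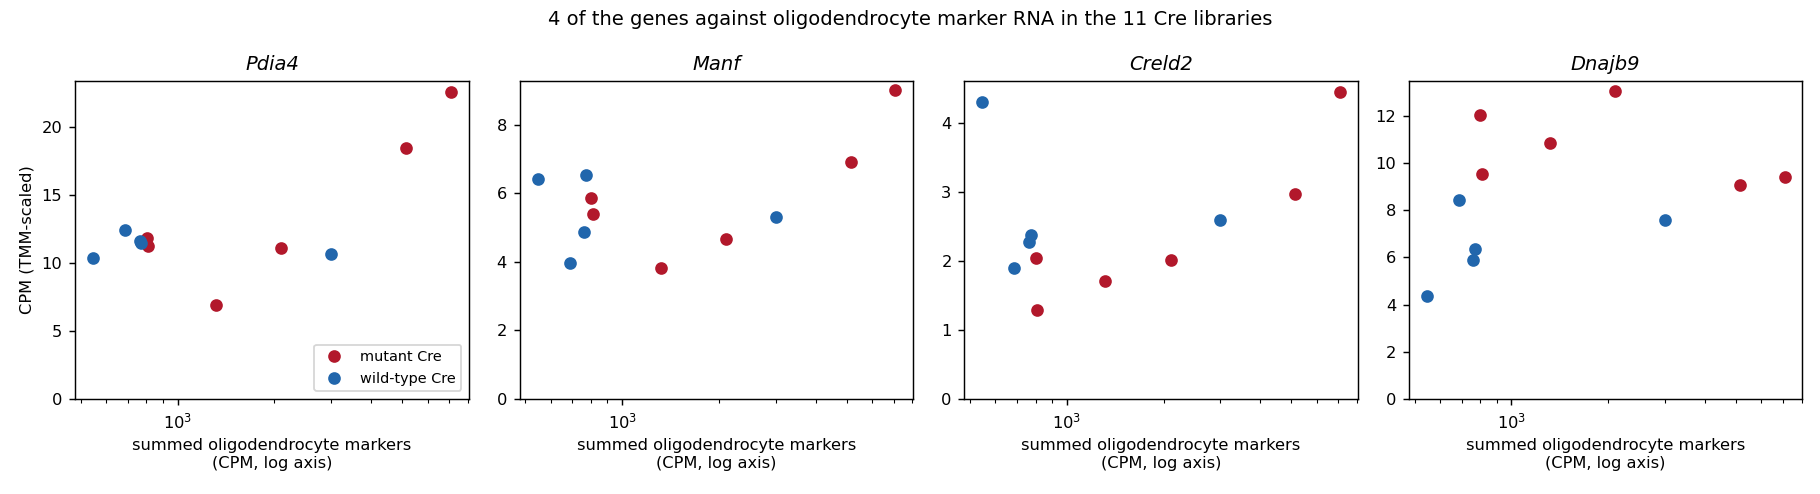
Each panel plots the CPM of 1 gene (linear axis from 0) against the summed CPM of 8 oligodendrocyte markers (log axis) in the 6 mutant Cre and 5 wild-type Cre libraries. The 2 mutant libraries with the highest marker sums had the highest Pdia4 and Manf values, while Dnajb9 lay in 2 layers by genotype across the range of the markers. The 4 genes were chosen for display after their values were seen.

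The regulator Xbp1 and the degradation factor Herpud1 did not pass the test either. Xbp1 had 10.7, 13.5, 13.5, 11.2, 12.7 and 12.1 CPM in mutant Cre libraries, against 13.5, 8.46, 9.34, 9.13 and 12.4 CPM in wild-type Cre libraries. The mutants spanned a narrow range inside which 2 of the wild-type values fell. The log2 fold change was 0.22 ± 0.17 (adjusted p = 0.514). The tables give 1 value per gene, so the spliced and unspliced forms of Xbp1 mRNA were not separated, and IRE1 activity cannot be read from it.

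Herpud1, a membrane protein that organises the ER ubiquitin ligase complex, had 8.04, 9.25, 11.9, 9.81, 8.73 and 12.03 CPM in mutant Cre libraries. In wild-type Cre libraries it had 14.3, 5.65, 4.05, 2.79 and 2.95 CPM. The first wild-type library was above all mutants and the other 4 were below all of them. The log2 fold change was 0.80 ± 0.37 (adjusted p = 0.287). Without wild-type library 1 it was 1.37 ± 0.23 (adjusted p = 0.0399), a call by edgeR in a fit that called 17 of 12856 genes. That library had the highest share of ribosomal RNA genes of the Cre libraries (89.0%), 1213587 counts on all other genes, and a TMM factor of 0.459. After that scaling its Hspa5, Hsp90b1 and Calr were the highest of its group, while its 394 Hspa5 and 548 Calr counts were the lowest. Per 100 counts of Hspa5, which needs no scaling, its Herpud1 was also the highest of its group (18.3). Within title numbers the log2(CPM + 1) difference was 1.11 for 20302 and 0.15 for 20401, the number that holds wild-type library 1.

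**Figure D3:**
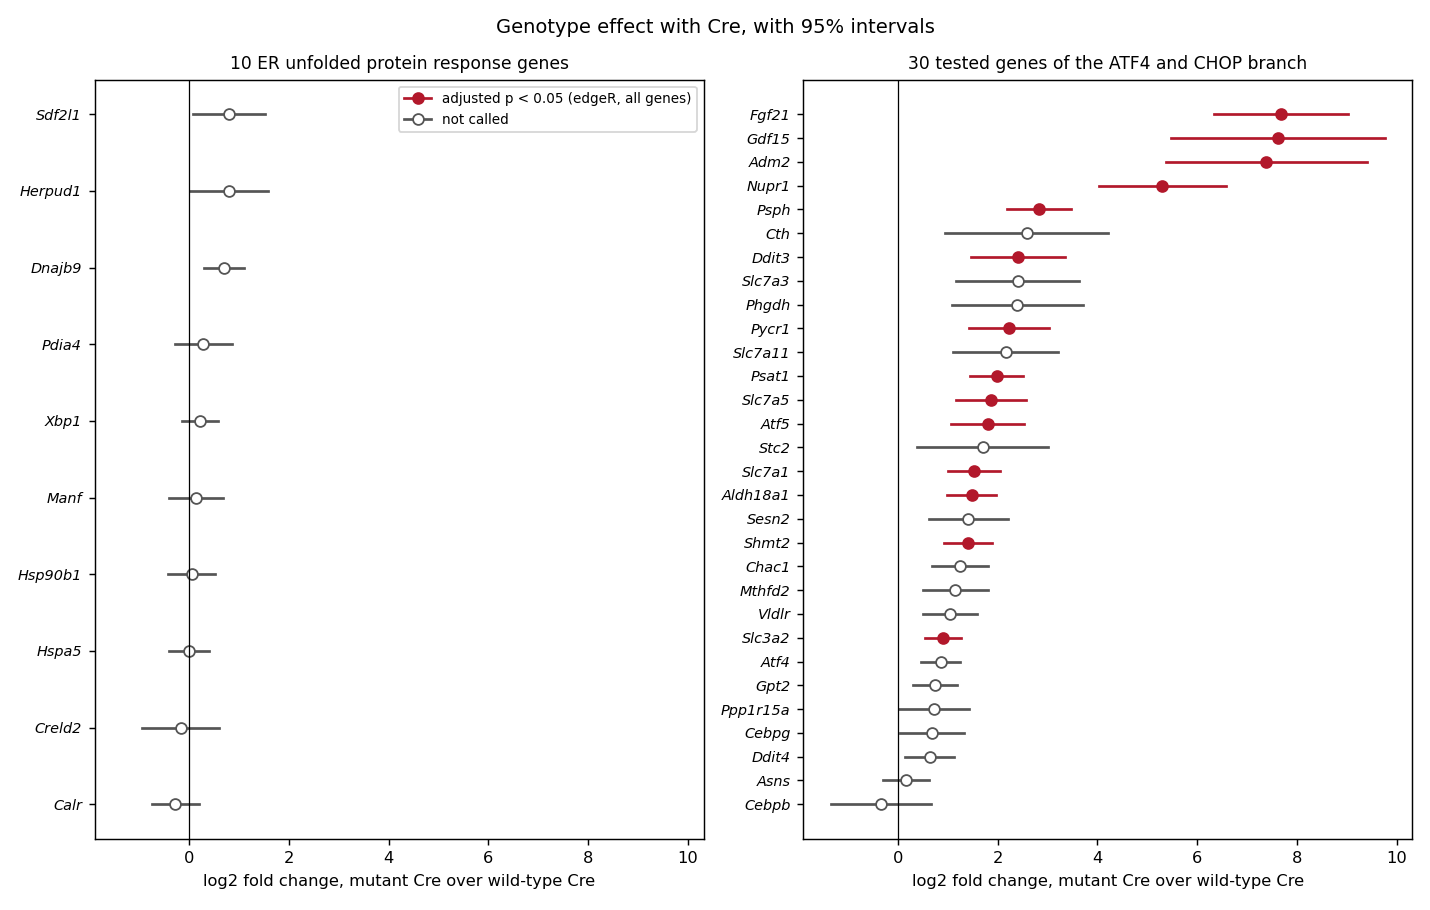
Points are log2 fold changes of mutant Cre over wild-type Cre libraries with 95% intervals (edgeR), for the 10 ER genes on the left and the 30 tested ATF4-branch genes on the right, on 1 shared scale. All 10 ER genes lay between -0.28 and 0.80, and the filled ATF4-branch genes (14 of 30) passed the test. Fgf21, Gdf15, Adm2 and Nupr1 were near 0 in wild type, so their fitted size depends on the prior count of the fit.

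Ratios within a library remove the scaling between libraries. Per 100 counts of Hspa5, Dnajb9 had 18.4 ± 4.20 counts in mutant Cre and 11.4 ± 3.15 in wild-type Cre libraries (SD, n = 6 and 5). Herpud1 had 16.9 ± 1.62 in mutant Cre and 9.43 ± 5.49 in wild-type Cre libraries, and Sdf2l1 had 4.85 ± 1.31 in mutant Cre and 2.96 ± 1.34 in wild-type Cre libraries. Hsp90b1 kept nearly the same ratio, 214 ± 33.6 in mutant Cre and 208 ± 5.35 in wild-type Cre libraries, and its SD was far smaller in wild type. Calr had 107 ± 18.7 in mutant Cre and 131 ± 20.9 in wild-type Cre libraries. The ranges of the groups overlapped for each of these 5 ratios. For scale, Psph, an ATF4 target of serine synthesis, had 15.0 to 27.8 counts per 100 of Hspa5 in mutant Cre and 1.11 to 3.49 in wild-type Cre libraries, with no overlap. Psph, Fgf21 and Nupr1 had the smallest p of their list, and the last 2 did not overlap either. Atf4 (55.6 to 90.6 in mutant Cre, 32.1 to 57.1 in wild-type Cre libraries) and Ddit3 (3.48 to 19.7 and 0.748 to 5.17) did overlap.

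**Figure D4:**
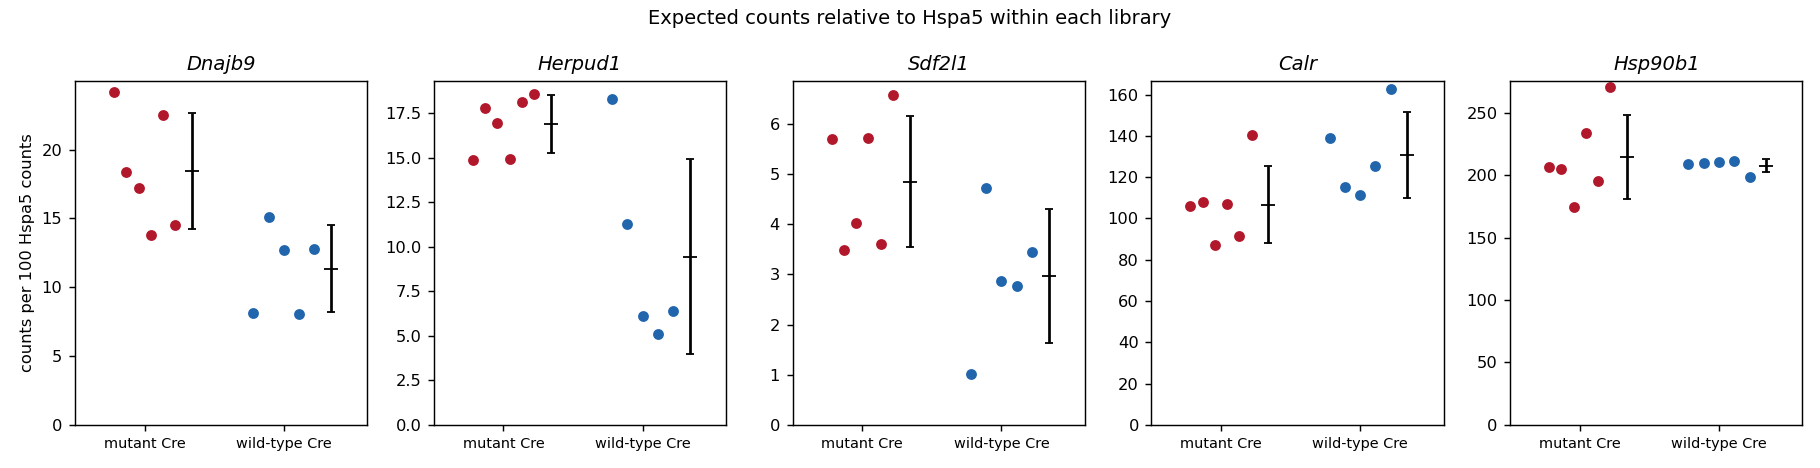
Points are expected counts of 5 genes per 100 expected counts of Hspa5 in each of 6 mutant Cre and 5 wild-type Cre libraries, with the mean and SD beside them, on linear axes from 0. Dnajb9 averaged 18.4 in mutant and 11.4 in wild-type libraries, while Hsp90b1 averaged 214 in mutant and 208 in wild-type libraries.

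The other genes of ER protein folding gave no calls with Cre either. Of 20 tested chaperones and folding enzymes, 0 were called by edgeR (median log2 fold change 0.07), and 2 higher and 1 lower had an unadjusted p under 0.05. The smallest p was that of Ero1l, the oxidase that recharges disulfide isomerases, with 16.0 ± 5.81 CPM in mutant Cre and 8.45 ± 2.49 CPM in wild-type Cre libraries (log2 fold change 0.92 ± 0.26, adjusted p = 0.132). Txndc5, a disulfide isomerase, was at 13.9 ± 2.41 CPM in mutant Cre and 20.96 ± 3.46 CPM in wild-type Cre libraries (-0.59 ± 0.18, adjusted p = 0.150), and the J-domain protein Dnajc1 was at 0.71 ± 0.28 (adjusted p = 0.243).

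Of 16 tested genes of ER-associated degradation, 0 were called (median -0.01), and 2 higher and 2 lower had an unadjusted p under 0.05. The leading ones differed in sign. Derl1, a channel component, was at 0.47 ± 0.14 (adjusted p = 0.141). Vcp, the ATPase that extracts proteins from the membrane, was at -0.43 ± 0.16 (adjusted p = 0.210), and the ubiquitin ligase Syvn1 at -0.38 ± 0.15 (adjusted p = 0.235). Among 10 tested sensors, their proteases and related factors, 0 were called (median 0.40, 2 higher unadjusted). Creb3l1, a transcription factor of the ATF6 type, was at 1.43 ± 0.57 (adjusted p = 0.246), on 0 to 33 counts per wild-type library. The site proteases Mbtps1 and Mbtps2, which cut ATF6, were at 0.48 ± 0.21 (adjusted p = 0.279) and 0.63 ± 0.33 (adjusted p = 0.337). Of 22 translocation and glycosylation genes, 0 were called (median 0.09, 2 higher and 1 lower unadjusted). Ssr3 was at 0.88 ± 0.29 (adjusted p = 0.185), Srpr at -0.74 ± 0.26 (adjusted p = 0.193) and Spcs2 at 0.44 ± 0.19 (adjusted p = 0.276).

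Among 11 tested heat shock proteins of the cytosol and mitochondria, which answer to another stress regulator, 0 were called (median 0.18, 2 higher and 2 lower unadjusted). Bag3, an HSP70 cochaperone, had 65.8 ± 23.8 CPM in mutant Cre and 164 ± 72.4 CPM in wild-type Cre libraries (log2 fold change -1.34 ± 0.31, adjusted p = 0.0856). Hsph1 was at 0.60 ± 0.22 (adjusted p = 0.222), and Hspa1b at 1.78 ± 0.70 (adjusted p = 0.243).

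The ATF4 branch was the only one of these lists of stress and ER genes with called members. Of its 33 genes 30 were tested, 14 rose and 0 fell, beside 0.234% of all genes called higher. That list was chosen with earlier results of these data known, so its count is a description and not independent support. Fgf21, a secreted stress hormone, had 142 to 416 counts in mutant Cre libraries and 0 to 2 counts in wild-type Cre libraries. Nupr1, a stress-induced chromatin protein, had 45 to 132 counts in mutant Cre and 0 to 5 counts in wild-type Cre libraries. With so few wild-type counts, Fgf21 and Nupr1 passed the count filter only through the mutant libraries. A fall could not have been seen for them, so the count of rising genes was partly set by the filter. Psph had 11.5 ± 2.37 CPM in mutant Cre and 1.68 ± 0.725 CPM in wild-type Cre libraries, a log2 fold change of 2.82 ± 0.30 (adjusted p = 0.000805). Ddit3, which encodes CHOP and is raised by ATF4 and in ER stress, rose by 2.41 ± 0.44 on the log2 scale (adjusted p = 0.0259). Atf4 itself was at 0.86 ± 0.18 (adjusted p = 0.0678), and Asns at 0.16 ± 0.21 (adjusted p = 0.706). The markers of other cells also leaned upward in mutants, with 0 called: the medians were 1.63 for oligodendrocytes, 1.01 for astrocytes, 2.91 for microglia (3 tested genes), 1.69 for endothelial cells and pericytes, 1.94 for fibroblasts and 0.59 for other spinal neurons, and -0.50 for motor neurons. Unadjusted, 6 of 8 oligodendrocyte and 3 of 3 microglial markers had a p under 0.05 and were higher, and 3 of 8 motor neuron markers were lower. Of 7 microglial genes listed, only these 3 passed the count filter. C1qb, for example, had 13 to 544 counts in mutant Cre and 1 to 18 counts in wild-type Cre libraries. It was tested because of its mutant counts, so its direction was partly set by the filter. The part of other cells in the results was not tested.

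In the background precipitates, mutant no-Cre against wild-type no-Cre, 0 of 12588 genes (0%) and 0 of the 10 ER genes were called by edgeR. DESeq2 also called 0, and 565 genes and 1 of the 10 had an unadjusted p under 0.05 by edgeR. That gene was Sdf2l1, with 3.30, 0.959, 2.56, 3.45, 0 and 3.08 CPM in mutant no-Cre libraries, against 0, 0, 0.843, 0.518, 0.845 and 1.45 CPM in wild-type no-Cre libraries. Its log2 fold change was 1.81 ± 0.83 (adjusted p = 0.951). It thus leaned upward in mutants with and without Cre. Dnajb9 had 0.587 to 6.94 CPM in mutant no-Cre and 1.74 to 7.71 CPM in wild-type no-Cre libraries (-0.09 ± 0.53, adjusted p = 0.993). Herpud1 was at 0.82 ± 0.60 (adjusted p = 0.956) and Hspa5 at 0.18 ± 0.24 (adjusted p = 0.979). All 10 genes overlapped between the genotypes.

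The difference between the genotype effects with and without Cre was tested as an interaction in all 23 libraries. It called 3 of 14468 genes (0.0207%) and 0 of the 10 ER genes, of which 0 also had an unadjusted p under 0.05, against 1524 of all genes. DESeq2 called 42 genes and 0 of the 10. The estimate was 0.75 ± 0.56 for Dnajb9 (adjusted p = 0.619), -0.65 ± 0.37 for Calr (adjusted p = 0.525) and -1.21 ± 0.73 for Creld2 (adjusted p = 0.543). Of 31 tested ATF4-branch genes 0 were called, with a median of 1.49 against 0.12 for all genes.

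The comparison of Cre with no-Cre precipitates shows the level of these transcripts relative to other genes in the 2 precipitates. By TMM scaling the median of all genes was -0.14 in both genotypes, so a value near 0 does not mean background level. In mutants, Hspa5, Dnajb9 and Xbp1 were higher with Cre and 0 of the 10 were lower, where 33.3% of 12741 genes were called and 14.1% called higher. Hspa5 had 48.2 to 70.1 CPM in mutant Cre and 31.6 to 47.0 CPM in mutant no-Cre libraries (log2 fold change 0.60 ± 0.19, adjusted p = 0.0237). Dnajb9 had 9.07 to 13.1 CPM in mutant Cre and 0.587 to 6.94 CPM in mutant no-Cre libraries (1.32 ± 0.38, adjusted p = 0.0135). Xbp1 had 10.7 to 13.5 CPM in mutant Cre and 2.35 to 7.61 CPM in mutant no-Cre libraries (1.16 ± 0.27, adjusted p = 0.00364). The mutant no-Cre values rested on 1 to 157 counts for Dnajb9 and 4 to 172 counts for Xbp1. The lowest value of both genes was in mutant no-Cre library 5, with 95.6% ribosomal RNA genes and a TMM factor of 0.126. The Hspa5 call was lost without the title number 18405 (0.61, adjusted p = 0.0510), without mutant Cre library 3 (adjusted p = 0.0555) and without mutant no-Cre library 3 (adjusted p = 0.0532). Herpud1 was not called (0.80 ± 0.43, adjusted p = 0.165), and was called without mutant no-Cre library 4, which had 14.6 CPM (1.51, adjusted p = 0.00418).

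In wild type, Hspa5 alone of the 10 was called higher with Cre, where 45.9% of 12485 genes were called and 20% called higher. It had 46.1 to 78.1 CPM in wild-type Cre and 24.6 to 43.0 CPM in wild-type no-Cre libraries (0.93 ± 0.24, adjusted p = 0.00415). Calr was close to the threshold, with 57.7 to 109 CPM in wild-type Cre and 25.8 to 67.7 CPM in wild-type no-Cre libraries (0.66 ± 0.27, adjusted p = 0.0511). It was called without wild-type Cre library 2 (0.78, adjusted p = 0.0272) and without wild-type no-Cre library 2 (adjusted p = 0.0415) or 3 (adjusted p = 0.0457). Dnajb9 was at 0.71 ± 0.40 (adjusted p = 0.161) and Xbp1 at 1.05 ± 0.54 (adjusted p = 0.119). With the title number as a block (8 libraries kept), Dnajb9, Calr and Herpud1 were called as well. That fit called 5769 of 12702 genes, 2734 of them higher. The labels do not say that this number pairs libraries. Hsp90b1, Pdia4, Sdf2l1, Creld2 and Manf were called in neither genotype. Hsp90b1 was at -0.07 ± 0.24 in mutants and 0.18 ± 0.26 in wild type. Under library totals alone, Hsp90b1 was at 1.40, Calr at 1.41 and Creld2 at 0.67 in mutants, where TMM scaling gave -0.07, -0.14 and -0.78, so the direction of these 3 genes depended on the scaling. The 10 genes had a median of 0.34 in mutants and 0.68 in wild type, against -0.14 for all genes in both. In mutants the median of the 10 was 0.07 without title number 18405 (all genes -0.03), and 1.56 with library totals (all genes 1.13). Motor neuron markers had medians of 3.71 in mutants and 4.80 in wild type.

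**Figure D5:**
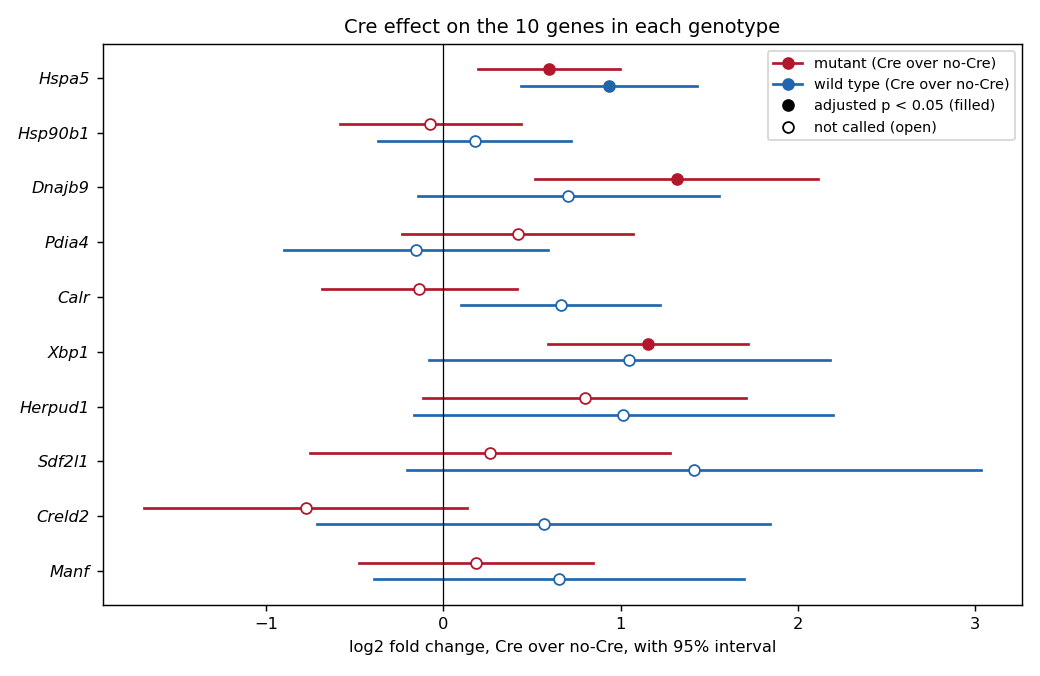
Points are log2 fold changes of Cre over no-Cre libraries with 95% intervals (edgeR), red for mutants (6 against 6 libraries) and blue for wild type (5 against 6), and filled points passed an adjusted p of 0.05. Hspa5 was called in both genotypes, Dnajb9 and Xbp1 in mutants, and the other 7 genes in neither.

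Levels between genes were compared per transcript length, in TPM, as a percent of the TPM of Hspa5 in the same library. Calr was at 219 ± 39.5% in mutant Cre and 225 ± 19.3% in wild-type Cre libraries, and Hsp90b1 at 200 ± 25.1% in mutant Cre and 157 ± 35.6% in wild-type Cre libraries. Calr and Hsp90b1 held the first and second ranks among the 10 genes in all 23 libraries, and Hspa5 the third. The next ranks were close together. In mutant Cre libraries Xbp1 was at 31.3 ± 6.39%, Manf at 26.9 ± 6.45%, Dnajb9 at 25.6 ± 6.03%, Herpud1 at 25.6 ± 3.95% and Pdia4 at 23.2 ± 7.67%, neighbours that did not differ beyond their spread. In wild-type Cre libraries Xbp1 was at 32.2 ± 6.99%, Manf at 21.4 ± 6.85%, Pdia4 at 17.2 ± 4.51%, Dnajb9 at 13.6 ± 5.37% and Herpud1 at 11.1 ± 4.65%. Sdf2l1 was at 12.01 ± 3.22% in mutant Cre and 6.49 ± 3.51% in wild-type Cre libraries, and Creld2 at 7.82 ± 3.07% in mutant Cre and 8.11 ± 4.40% in wild-type Cre libraries. The TPM of Xbp1, Herpud1 and Hspa5 also depends on the isoforms assigned. Their effective lengths spanned 830.5 to 1982, 1240 to 1811 and 1504 to 2408 bases over the 11 Cre libraries. Hspa5 is the divisor of every percent, so its length enters all of them. Per 100 counts of Hspa5, Hsp90b1 was at 214 in mutant Cre and 208 in wild-type Cre libraries.

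Among the 11 Cre libraries, the 10 genes did not all vary together within a genotype. Deviations of log2(CPM + 1) from the group mean had a median Pearson r of 0.36 over the 45 gene pairs, 34 of them positive, with a range of -0.66 to 0.88. These values are descriptions, and the libraries share their depth and cell content across genes. Of 3747 genes with a mean of at least 10 CPM, those most like Hspa5 were Ythdc1 (r = 0.94), Pfdn5 (0.92), Rps6-ps4 (0.91), Pfkm (0.90) and Rpl17 (0.90). The median over all these genes was -0.07. Hsp90b1 was at 0.88 (rank 15), Calr at 0.74 (rank 203), Pdia4 at 0.50 (rank 708) and Xbp1 at 0.23 (rank 1241).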

How the data were processed

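Reads were aligned with Bowtie2 2.2.0 and quantified per gene with RSEM 1.2.12, per the submitters' processing notes. The genome build and gene models behind them: not given in the sources used here. The authors deposited expected counts, TPM and FPKM per gene, with length and effective length. Expected counts, which RSEM shares out among transcripts, were rounded to whole numbers and tested with edgeR 4.0.16 (R 4.3.3) by quasi-likelihood, with TMM factors, filterByExpr (minimum count 10) and Benjamini-Hochberg adjustment over all genes tested, at 0.05. Each comparison of 2 groups used those groups' libraries. An interaction used all 23. DESeq2 1.42.0 was an alternative. A standard error is the fold change over the root of the F statistic, and 95% intervals use the t distribution with the fit's degrees of freedom. The deposited TPM served for levels between genes. The deposited FPKM were not used. Gene identifiers (37607 of 38924) matched GENCODE M21. The scripts were tested on simulated data.

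The 10 genes, the companion lists and the tests were chosen with earlier results of these data known. Named beyond the 10 were Chat and, per list, the 3 genes with the smallest p with Cre, plus the 5 genes most like Hspa5. Ddit3, Atf4, Asns and the genes listed by motif were named after their values were seen. Replicates were numbered in the order of deposit, and the numbers pair no libraries.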

Additional observations from a re-analysis of the deposited data

Results flagged for a closer look

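In 40 sets of values (10 genes in 4 groups), 3 had 1 library far from the others of its group by Dixon's test at the 95% level, and chance flags about 1 in 20 groups. Pdia4 was at 30.4 CPM in wild-type no-Cre library 2, against 6.23 to 13.7 CPM in the other 5. Herpud1 was at 14.3 CPM in wild-type Cre library 1, against 2.79 to 5.65 CPM in the other 4. Creld2 was at 4.30 CPM in wild-type Cre library 4, against 1.90 to 2.59 CPM in the other 4. Without the Herpud1 library, Herpud1 was called higher in mutants with Cre (log2 fold change 1.37, adjusted p = 0.0399), in a fit that called 17 of 12856 genes. Without the Creld2 library, Creld2 was at 0.08 in place of -0.17.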

How the results depend on the processing

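No value of the 10 genes that had passed the test changed sign under any alternative run. With Cre, the count of called genes was 41 (29 higher and 12 lower), against 17 (17 and 0) with library totals alone, 413 (122 and 291) by DESeq2, 89 with no filter and 11 in a fit of all 23 libraries. Leaving out 1 library each gave 10 to 1057 genes, the highest without wild-type Cre library 2 and the lowest without wild-type Cre library 3. The count moved by over 1.5 times without mutant Cre library 3 (19) or 5 (16) and without wild-type Cre library 1 (17), 4 (22) or 5 (22). The fit without title number 18405 and wild-type Cre library 2, added after seeing the data, gave 1285. The ER genes called with Cre were 0, against 1 by DESeq2, 2 in that added fit and 0 to 1 without 1 library. The ATF4-branch count of 14 became 8 with library totals, 6 with all 23 libraries, 23 in the added fit, and 6 to 21 without 1 library. Library totals moved the median of all genes with Cre to 0.79, and the medians of the ER genes and the ATF4 branch to 0.93 and 2.32. The ER median was -0.17 in the added fit.

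Without Cre, no filter gave 31 genes. For Cre in mutants, no filter gave 8175 genes, and library totals turned the split of 1802 higher and 2446 lower into 3266 and 275. The ER genes called there were 2 to 4 without 1 library. A minimum mean of 5 CPM lost the Hspa5 call (0.46, adjusted p = 0.0573). For Cre in wild type, library totals gave 909 genes and 0 ER genes (Hspa5 0.79, adjusted p = 0.458), DESeq2 2 and no filter 2 ER genes, and 1 to 2 without 1 library. The interaction gave 1 gene with library totals, 42 by DESeq2, 9 with no filter and 1 to 8 without 1 library.

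The title number as a block gave 19 called genes with Cre (8 libraries kept) and a median of -0.10 for the ER genes. For Cre in wild type it gave 4 ER genes among 5769 of 12702 genes called, 2734 of them higher. It added Dnajb9 (1.24, adjusted p = 0.0358), Calr (1.05, adjusted p = 0.0154) and Herpud1 (2.23, adjusted p = 0.00266). The block could not be fitted for genotype without Cre or for Cre in mutants, where 1 number was shared, and the labels do not say that it pairs libraries. Of the values of the 10 genes under alternatives with Cre, 213 kept their side of the threshold and 5 gained a call. Low counts limit Sdf2l1 and Creld2 most.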
